A study of Mus musculus with 24 samples.

Results

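Genes of potassium channels were followed across 3 subregions of the suprachiasmatic nucleus (SCN), the paired nucleus of the hypothalamus that serves mammals as central circadian pacemaker. They are all genes of the array annotation whose symbol begins with Kcn, which gave 84 genes on 167 probe sets with exactly 1 symbol. Each gene was read from its brightest probe set by the average of 24 arrays, and 46 of the genes had more than 1 to choose from. Tests needed a log2 value over 4 on 4 or more arrays. This left 62 of the 84 Kcn genes, among 13494 of 18193 genes in all. The 22 genes left out are Kcnab3, Kcne1, Kcne3, Kcng1, Kcng4, Kcnh5, Kcnh7, Kcnj2, Kcnj4, Kcnj13, Kcnj15, Kcnk4, Kcnk5, Kcnk6, Kcnk12, Kcnk16, Kcnmb1, Kcnmb4os1, Kcnq1, Kcns1, Kcns3 and Kcnv2, and nothing is said of their levels. Because the rule looks at single arrays, a gene measured in 1 group alone could pass it, so counts are of the 62 tested genes and not of all Kcn genes.

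All mice were adults of the C57BL/6 strain, bought at 8 weeks of age, and carried no stated transgene or mutation. All were held for at least 7 days in constant dim red light, so the sham mice share that condition with the pulsed ones. The light groups were given 30 min of light timed to advance the clock and the sham groups a sham treatment, and tissue was taken 3.5 h later. Laser microdissection took the ventral (core), the central and the dorsal SCN from 25 µm sections. This gave 6 groups (ventral light, ventral sham, central light, central sham, dorsal light and dorsal sham) of 4 arrays each. Amplification and labelling ran in 2 batches, with replicates 1 and 2 of every group in batch A and replicates 3 and 4 in batch B. The labels do not say how many animals gave an array or which regions share an animal, so the p-values measure the spread between these samples, which may be partly technical.

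Potassium channels let potassium ions leave or enter a cell down their gradient and so set the resting potential and the shape and spacing of action potentials. Voltage-gated Kv channels repolarise the membrane after a spike, and among them Kv3 channels allow fast firing, Kv4 channels carry the A-type current that delays the next spike, and Kv7 channels carry a slow current that damps firing. Large-conductance BK and small-conductance SK channels open with intracellular calcium, inward rectifiers (Kir) hold the potential near rest or follow G proteins or ATP, and K2P channels leak potassium at rest. SCN neurons fire faster by day than by night, and A-type, fast delayed rectifier and BK currents are known to take part in that daily rhythm. Astrocytes and oligodendrocytes also use potassium channels, chiefly Kir channels, to take up potassium released by neurons.

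Values are on the log2 scale, as the authors deposited them. Array medians were 3.52 to 3.62 in batch A but 4.81 to 5.07 in batch B, so levels are given within a batch or as batch-centred values, meaning the log2 value minus the gene's mean over the 12 arrays of its batch. Of the tested Kcn genes, 25 exceeded 4 on all 24 arrays. A further 17 exceeded it on arrays of batch B only, some on as few as 4 of them (Kcne2 and Kcnmb4os2). A replicate of the dorsal light group, number 4, stood apart from its batch. Its median correlation with the other arrays of batch B was 0.913, where the others had at least 0.977. Its 3′ minus 5′ signal for Gapdh, a measure of RNA length, was 5.41 against at most 1.07 in the rest of batch B. The 12 arrays of batch A had 2.02 to 3.28, so the batches differed in this measure too. Central light replicate 2 had the lowest such correlation of batch A, 0.955. Among the defining peptide genes of the SCN, Vip (3.44) and Grp (1.59) were higher in the ventral than in the dorsal SCN and Avp (-1.43) was lower, with adjusted p of at most 0.00074, whereas the core marker Calcr (-1.87) and Cck, listed with the shell (1.04, adjusted p = 0.00252), went the other way. In samples cut from tissue, fewer cells of a type and less RNA per cell cannot be told apart, and the sources used here do not say how the borders between subregions were drawn.

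Potassium channel genes differed between the subregions most often where the central was set against the dorsal SCN. Of the 62 genes, 19 (30.6%) differed there, where 7.11% of all genes tested did. The central SCN was higher for 7 of them (1.96% of all genes) and lower for 12 (5.14%). Ventral against dorsal SCN gave 10 genes (16.1%, and 4.61% of all genes), with 4 higher (2.63% of all) and 6 lower in the ventral SCN (1.98%). Ventral against central SCN also gave 10, against 5.20% of all genes, with 8 higher (4.36% of all) and 2 lower in the ventral SCN (0.845%). In at least 1 of these comparisons 21 Kcn genes differed, and 10.8% of all genes did. The median difference of the 62 genes was -0.11 for central minus dorsal, -0.06 for ventral minus dorsal and 0.10 for ventral minus central, beside -0.05, 0.01 and 0.05 over all genes. Values of the 8 arrays of both regions did not overlap for 9, 5 and 5 Kcn genes in that order, with 1.73%, 1.79% and 2.13% of all genes. Each comparison used 8 against 8 arrays, both treatments included, and a difference was called at an adjusted p under 0.05 in limma with batch as a term. All called differences had the same sign in both batches, but without the batch term none of the 62 genes passed in any of the 3 comparisons (0 genes each), and 1 batch alone gave 0 to 5. With the mean of all probe sets of a gene, dimmer ones included, the called Kcn differences kept their sign but several shrank by over 1.5 times. Among those that still passed, Kcna1 was then 0.65 for ventral minus central, and central minus dorsal became 0.37 for Kcnd2, 0.39 for Kcnd3, -0.998 for Kcnip4, -0.33 for Kcnj3, -0.62 for Kcnj5, 0.86 for Kcnmb2 and -0.52 for Kcnq3. Ventral minus dorsal became 0.38 for Kcnd2, -0.32 for Kcnj3, -0.57 for Kcnj5 and 0.37 for Kcnq5.

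**Figure D1:**
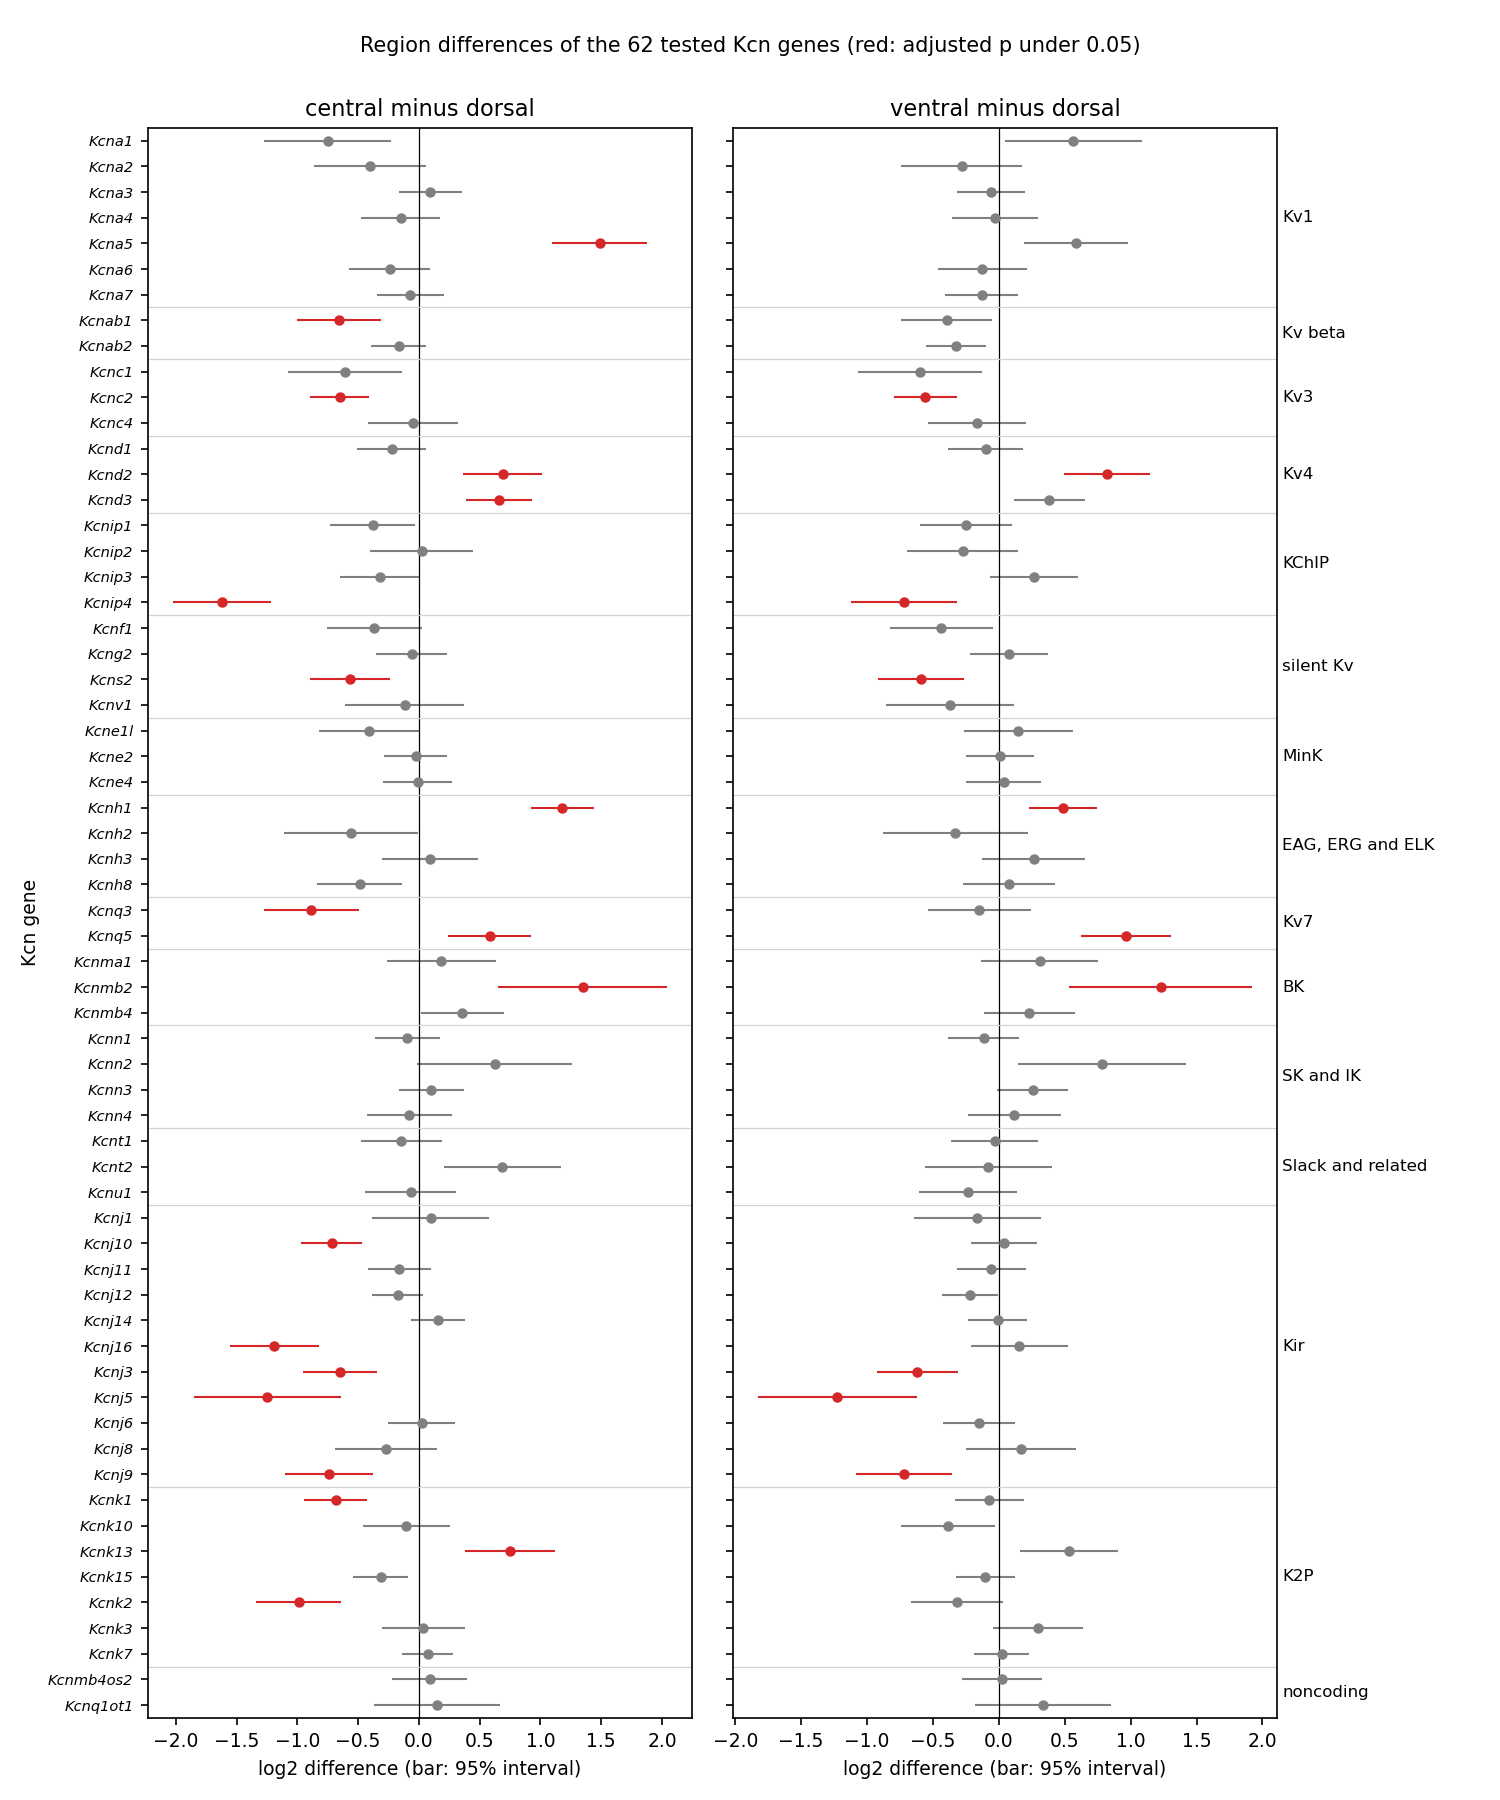
Log2 differences of the 62 tested Kcn genes, central minus dorsal SCN on the left and ventral minus dorsal SCN on the right, grouped by subfamily, with 95% intervals from 8 against 8 arrays. Red points passed an adjusted p of 0.05 in limma; they number 19 on the left and 10 on the right, and Kcnh1, Kcnd2, Kcnq5 and Kcnmb2 lie to the right of 0 in red in both panels.

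Kcnh1, which encodes the ether-à-go-go channel EAG1, differed in all 3 comparisons and fell in steps from the central to the ventral to the dorsal SCN. Its batch-centred values ran from 0.17 to 1.09 (median 0.67) in the central, from -0.25 to 0.15 (median -0.08) in the ventral and from -0.95 to -0.27 (median -0.50) in the dorsal SCN, so that no array of a region overlapped another region. The central level exceeded the dorsal one by 1.18 ± 0.125 (log2 difference ± standard error, SE; adjusted p = 1.56e-06), a 2.27-fold difference that was 1.11 in batch A and 1.25 in batch B. The central level exceeded the ventral one by 0.69 ± 0.125 (adjusted p = 0.000989), and the ventral exceeded the dorsal by 0.49 ± 0.125 (adjusted p = 0.023). That last difference no longer passed without dorsal sham replicate 3 (adjusted p = 0.0664) or with the mean of all probe sets (adjusted p = 0.128). A further probe set of Kcnh1 had the same sign in all 3 comparisons, at 0.80 for central minus dorsal.

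The A-type channel genes Kcnd2 and Kcnd3, which encode Kv4.2 and Kv4.3, were both lower in the dorsal SCN, while the third Kv4 gene, Kcnd1, did not pass in any region comparison (adjusted p of at least 0.39). Batch-centred values of Kcnd2 ran from 0.05 to 1.09 (median 0.22) in the ventral, from -0.21 to 0.48 (median 0.26) in the central and from -1.14 to -0.13 (median -0.34) in the dorsal SCN. Every ventral array was thus above every dorsal array, and central and dorsal arrays overlapped only slightly. Kcnd2 was 1.76-fold higher in the ventral (0.82 ± 0.157, adjusted p = 0.00198) and 1.61-fold higher in the central than in the dorsal SCN (0.69 ± 0.157, adjusted p = 0.007). Kcnd3 passed for central against dorsal alone (0.66 ± 0.13, adjusted p = 0.00206), with batch-centred values of -0.02 to 0.52 (median 0.38) in the central and -1.07 to 0.03 (median -0.23) in the dorsal SCN. Its ventral values, -0.21 to 0.23 (median 0.02), lay between. Both further probe sets of Kcnd2 and both of Kcnd3 that passed the filter on low values had the same sign.

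Kcnq5 and Kcnq3, subunits of the slow Kv7 current, went in different directions. Kcnq5 was lower in the dorsal SCN, with batch-centred values of -0.87 to -0.11 (median -0.48) there, -0.04 to 1.17 (median 0.35) in the ventral and -0.94 to 0.80 (median 0.07) in the central SCN. Ventral and dorsal arrays did not overlap, and central arrays spread over both. The ventral excess over the dorsal SCN was 0.97 ± 0.165 (adjusted p = 0.000595) and 0.97 in each batch. The central excess of 0.58 ± 0.165 (adjusted p = 0.032) did not pass without central light replicate 4 (adjusted p = 0.0798) or with the mean of all probe sets (0.18, adjusted p = 0.154). Kcnq3 was instead lowest in the central SCN, with values of -1.31 to -0.18 (median -0.53), against -0.21 to 0.56 (median 0.22) in the ventral and -0.10 to 1.29 (median 0.27) in the dorsal SCN. Central arrays were all below the dorsal ones (-0.88 ± 0.188, adjusted p = 0.00392). The ventral excess over the central SCN, 0.73 ± 0.188 (adjusted p = 0.0206), was lost without ventral light replicate 4 (adjusted p = 0.0586), with quantile normalization (0.0802) and with the mean of all probe sets (0.0569), each an adjusted p.

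Of the BK channel genes, the auxiliary subunit gene Kcnmb2, whose product inactivates BK channels, was lower in the dorsal SCN, whereas the pore gene Kcnma1 and the subunit gene Kcnmb4 did not pass. Batch-centred values of Kcnmb2 ran from -1.57 to 1.11 (median -1.27) in the dorsal, from -0.10 to 0.98 (median 0.37) in the ventral and from -0.24 to 1.51 (median 0.35) in the central SCN. A single dorsal array, light replicate 2 at 1.11, was above most arrays of the other regions, and the other 7 dorsal arrays lay at or below -0.20. Kcnmb2 was 2.55-fold higher in the central (1.35 ± 0.335, adjusted p = 0.0135) and 2.34-fold higher in the ventral than in the dorsal SCN (1.23 ± 0.335, adjusted p = 0.0344). Without that array the adjusted p became 0.000119 and 0.000355, but the ventral difference was lost in 12 of 24 fits that each left out 1 array, up to an adjusted p of 0.0848 without ventral sham replicate 4. It was also lost with quantile normalization (1.08, adjusted p = 0.114) and with the mean of all probe sets (0.69, adjusted p = 0.113), and the central one without both dorsal light replicate 4 and central light replicate 2 (1.04, adjusted p = 0.0556). Kcnma1, the pore, differed by 0.19 ± 0.215 for central minus dorsal and by 0.31 ± 0.215 for ventral minus dorsal, both short of the threshold. For ventral minus central its chosen probe set read 0.12 and 4 further ones read -0.49 to -0.11. Without dorsal light replicate 4 central minus dorsal read -0.01 and ventral minus dorsal 0.11.

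Kcna5, a delayed rectifier of the Kv1 subfamily, was highest in the central SCN. Its batch-centred values were 0.34 to 1.47 (median 0.69) there, -0.72 to 0.46 (median -0.09) in the ventral and -1.42 to 0.30 (median -0.80) in the dorsal SCN. Central and dorsal arrays did not overlap, and their difference of 1.49 ± 0.189 was the largest increase among the 62 genes in that comparison (2.81-fold, adjusted p = 1.6e-05). The ventral SCN was 0.90 ± 0.189 below the central (adjusted p = 0.00411), and its excess of 0.59 over the dorsal SCN did not pass. Without dorsal light replicate 4 that excess was 0.70 and passed (adjusted p = 0.0165). In batch A the dorsal mean, 3.69, was under the level of 4 used as the filter. Kcna1, which encodes Kv1.1, was higher in the ventral than in the central SCN (1.32 ± 0.251, adjusted p = 0.00168), with ventral values of 0.23 to 1.35 (median 0.52) and central values of -1.94 to -0.08 (median -0.51). These did not overlap, whereas dorsal values of Kcna1, from -0.80 to 1.74 (median -0.12), overlapped both. Its means in batch A were under 4 in every region (2.95 to 3.71), and the difference was 0.75 there against 1.88 in batch B. For ventral minus dorsal Kcna1 read 0.56 (adjusted p = 0.281), and 0.78 (adjusted p = 0.0267) without dorsal light replicate 4. The Kv1 genes Kcna2, Kcna3, Kcna4, Kcna6 and Kcna7 passed in no region comparison.

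Kcnk13, a K2P channel gene of the THIK type, completes the genes lower in the dorsal SCN. Its batch-centred values were -1.20 to 0.07 (median -0.43) in the dorsal and -0.21 to 0.86 (median 0.31) in the central SCN (0.75 ± 0.179, adjusted p = 0.00981), with ventral values of -0.20 to 0.75 (median 0.05). The arrays of these regions overlapped. Its levels were close to the filter, with regional means of 3.54 to 3.97 in batch A and 3.61 to 4.68 in batch B.

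**Figure D2:**
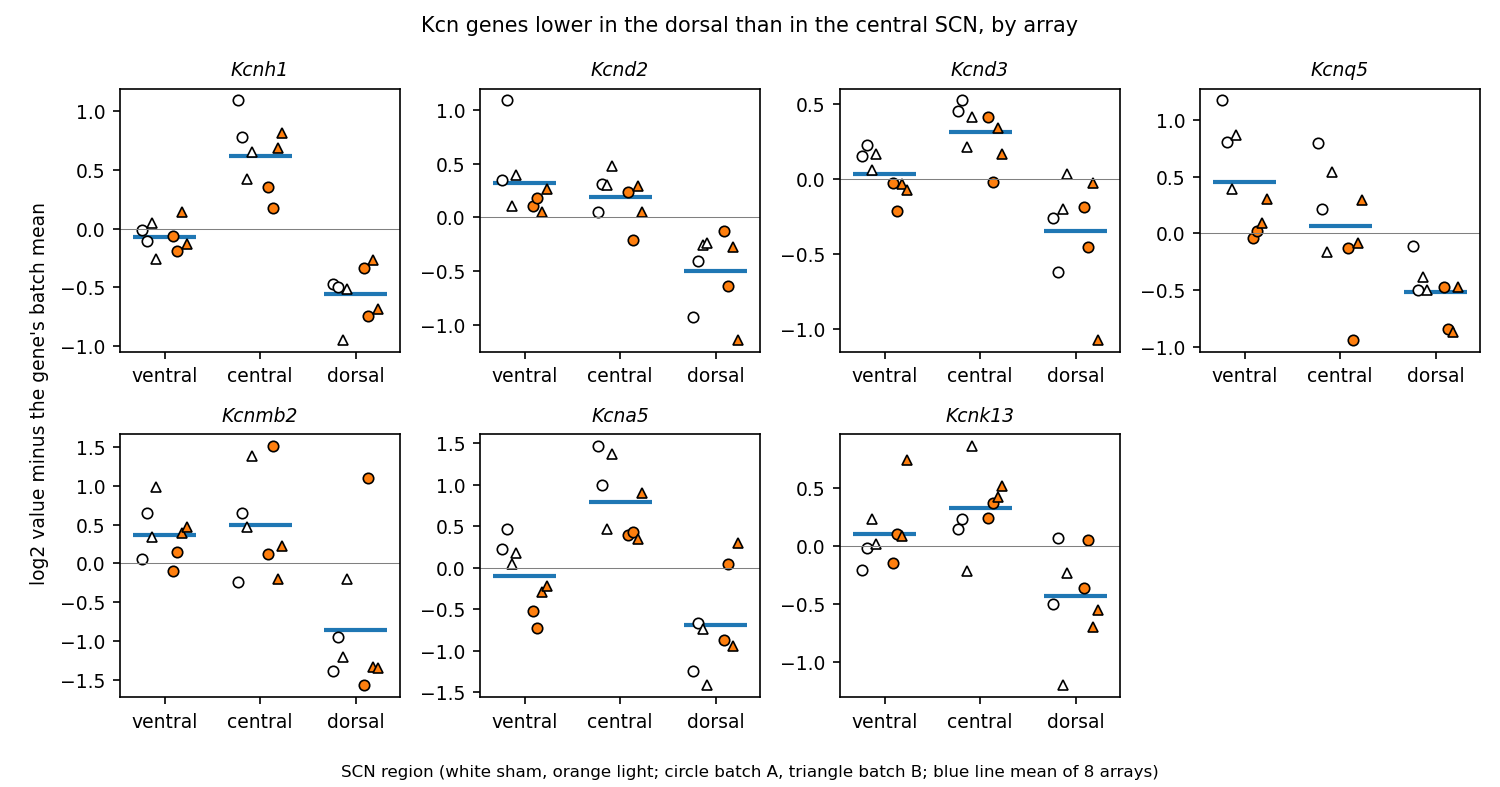
Batch-centred log2 values of 7 Kcn genes that were lower in the dorsal than in the central SCN, by region, for the 24 arrays. White symbols are sham and orange symbols light arrays, circles batch A and triangles batch B, and the blue line is the mean of 8 arrays; dorsal arrays of Kcnh1 and Kcna5 lie below all central ones, and the dorsal array of Kcnmb2 at 1.11 is light replicate 2.

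The G protein-gated inward rectifiers showed the opposite pattern. Kcnj3, Kcnj5 and Kcnj9 encode the Kir3 (GIRK) subunits GIRK1, GIRK4 and GIRK3, which assemble into channels opened by G protein-coupled receptors that inhibit neurons. All 3 were higher in the dorsal SCN than in both other regions, and the fourth subunit gene, Kcnj6 (GIRK2), did not pass (central minus dorsal 0.02 ± 0.132, ventral minus dorsal -0.15 ± 0.132). Because these genes moved together between regions, the 250 bases upstream of their starts are shown, with those of the glial gene Kcnj10, the neighbour of Kcnj9 on chromosome 1 with 0 genes between them in RefSeq. The sequences are from RefSeq's GRCm38.p6 promoter table and read 5′ to 3′ on the gene's strand. Capitals mark a GC box (GGGCGG, or CCGCCC on the other strand) or TATAAA.
Kcnj3, chr2:55435720-55435969, plus strand: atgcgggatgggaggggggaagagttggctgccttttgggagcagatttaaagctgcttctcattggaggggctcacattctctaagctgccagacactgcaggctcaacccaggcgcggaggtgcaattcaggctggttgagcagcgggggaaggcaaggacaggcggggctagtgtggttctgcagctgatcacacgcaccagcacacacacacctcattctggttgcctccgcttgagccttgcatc
Kcnj5, chr9:32344345-32344594, minus strand: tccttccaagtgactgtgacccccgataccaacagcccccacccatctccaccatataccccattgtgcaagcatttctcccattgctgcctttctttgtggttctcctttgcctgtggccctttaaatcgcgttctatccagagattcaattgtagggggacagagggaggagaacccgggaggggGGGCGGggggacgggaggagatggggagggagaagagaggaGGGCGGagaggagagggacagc
Kcnj9, chr1:172329323-172329572, minus strand: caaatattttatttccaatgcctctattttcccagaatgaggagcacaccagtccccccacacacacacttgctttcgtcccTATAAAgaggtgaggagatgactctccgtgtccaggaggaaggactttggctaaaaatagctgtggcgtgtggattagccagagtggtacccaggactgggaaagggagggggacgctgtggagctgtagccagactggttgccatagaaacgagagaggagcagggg
Kcnj10, chr1:172340960-172341209, plus strand: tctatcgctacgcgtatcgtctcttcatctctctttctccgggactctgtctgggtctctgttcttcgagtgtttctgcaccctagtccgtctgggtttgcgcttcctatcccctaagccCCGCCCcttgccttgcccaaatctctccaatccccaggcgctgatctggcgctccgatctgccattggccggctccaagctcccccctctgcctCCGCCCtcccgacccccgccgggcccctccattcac
The 3 GIRK promoters held no motif in common among those searched: Kcnj5 had 2 GC boxes, Kcnj9 had TATAAA and Kcnj3 had none. On both strands, GGGCGG was in 29 of 72 promoter windows of the tested Kcn genes (40.3%) and in 32.7% of all 32851 windows, and TATAAA in 2 of 72 (2.78%, Kcnj9 and Kcnj16) and 12.4%. The E-box CACGTG, to which clock proteins bind, was in 4 of 72 windows (5.56%) and in 6.02% of all. The cAMP response element TGACGTCA was in 0 of 72 and in 1.55% of all, and its core TGACG, which every TGACGTCA also holds, in 11 of 72 (15.3%) and 17.8%. Windows were found for 49 of the 62 genes, some with more than 1 start, and a match describes letters and not binding.

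Kcnj3 had batch-centred values of -0.06 to 0.77 (median 0.43) in the dorsal, -0.51 to 0.23 (median -0.22) in the ventral and -0.73 to 0.16 (median -0.13) in the central SCN. Of the dorsal arrays, 1 lay within the range of the other regions. Kcnj3 was 1.57-fold lower in the central (-0.65 ± 0.148, adjusted p = 0.00713) and 1.54-fold lower in the ventral than in the dorsal SCN (-0.62 ± 0.148, adjusted p = 0.014). For Kcnj5 the dorsal values ran from 0.05 to 2.65 (median 0.52), above all ventral (-0.94 to -0.08, median -0.35) and all central values (-1.05 to -0.01, median -0.22). The central difference was -1.25 ± 0.292 (adjusted p = 0.00853) and the ventral -1.23 ± 0.292 (adjusted p = 0.0135). Kcnj5 was under 4 in every region of batch A (means 2.71 to 3.20), where the differences were -0.45 and -0.49. In batch B they were -2.05 and -1.96, with means of 4.12 in the central, 4.21 in the ventral and 6.17 in the dorsal SCN. Kcnj9 had dorsal values of -0.60 to 1.00 (median 0.69), against -0.84 to 0.18 (median -0.12) in the ventral and -1.14 to 0.43 (median -0.23) in the central SCN. Of the dorsal light arrays 2 reached into the range of the other regions, and all 4 dorsal sham arrays were above it. Its differences were -0.74 ± 0.176 (central, adjusted p = 0.00955) and -0.72 ± 0.176 (ventral, adjusted p = 0.0164). They rest on the chosen probe set: of 2 further probe sets of Kcnj9, 1 had the same sign (-0.23 and -0.27) and 1 the other (0.08 and 0.12), and the mean of all probe sets did not pass (-0.23, adjusted p = 0.121, and -0.20, adjusted p = 0.24).

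Kcnc2 and Kcns2, from the fast Kv3 and the electrically silent Kv9 subunits, were also higher in the dorsal SCN. Kcnc2 had batch-centred values of -0.09 to 0.73 (median 0.43) in the dorsal, -0.38 to 0.29 (median -0.18) in the ventral and -0.86 to 0.33 (median -0.13) in the central SCN, with some overlap. It was lower in the central (-0.65 ± 0.116, adjusted p = 0.000775) and in the ventral than in the dorsal SCN (-0.56 ± 0.116, adjusted p = 0.00424). Its Kv3 relative Kcnc1 did not pass, at -0.61 ± 0.226 (adjusted p = 0.119) and -0.60 ± 0.226 (adjusted p = 0.179), and its further probe sets over the filter on low values read 0.02 and 0.18 for central minus dorsal and 0.08 and 0.10 for ventral minus dorsal. Kcns2, a subunit that modifies Kv2 channels, had dorsal values of 0.02 to 0.87 (median 0.35), ventral values of -0.74 to 0.02 (median -0.16) and central values of -0.79 to 0.48 (median -0.04). Its ventral (-0.59 ± 0.158, adjusted p = 0.0295) and central differences (-0.57 ± 0.158, adjusted p = 0.0284) were each lost when 1 array was left out, up to adjusted p of 0.0787 without ventral sham replicate 3 and 0.0804 without central sham replicate 4. The central one was also lost after median centring (adjusted p = 0.0571) and, in a separate fit, with array weights (adjusted p = 0.0522). It was lost as well without both dorsal light replicate 4 and central light replicate 2 (adjusted p = 0.0627).

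Among the KChIP genes, whose calcium-binding products attach to Kv4 channels, Kcnip4 had the largest regional difference of all 62 genes. Its batch-centred values ran from -0.12 to 1.60 (median 0.61) in the dorsal, from -0.33 to 0.62 (median -0.07) in the ventral and from -1.25 to -0.55 (median -0.76) in the central SCN. Every central array was below every array of the other regions. The central level was 3.08-fold below the dorsal (-1.62 ± 0.194, adjusted p = 7.57e-06) and 1.87-fold below the ventral one (ventral minus central 0.90 ± 0.194, adjusted p = 0.00513). Both further probe sets had the same signs. The ventral deficit against the dorsal SCN, -0.72 ± 0.194 (adjusted p = 0.0318), failed in 9 of 24 fits without 1 array, up to an adjusted p of 0.0893 without dorsal sham replicate 3, and with the mean of all probe sets (-0.39, adjusted p = 0.233). The central mean in batch A was 3.54. Kcnip4 was thus lowest in the central SCN, where Kcnd2 and Kcnd3 were higher than in the dorsal SCN. Kcnip3 was higher in the ventral than in the central SCN (0.59 ± 0.159, adjusted p = 0.0315, and 0.0876 without ventral light replicate 3), from means under 4 in batch A (3.09 to 3.55). Kcnip1 and Kcnip2 did not pass.

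**Figure D3:**
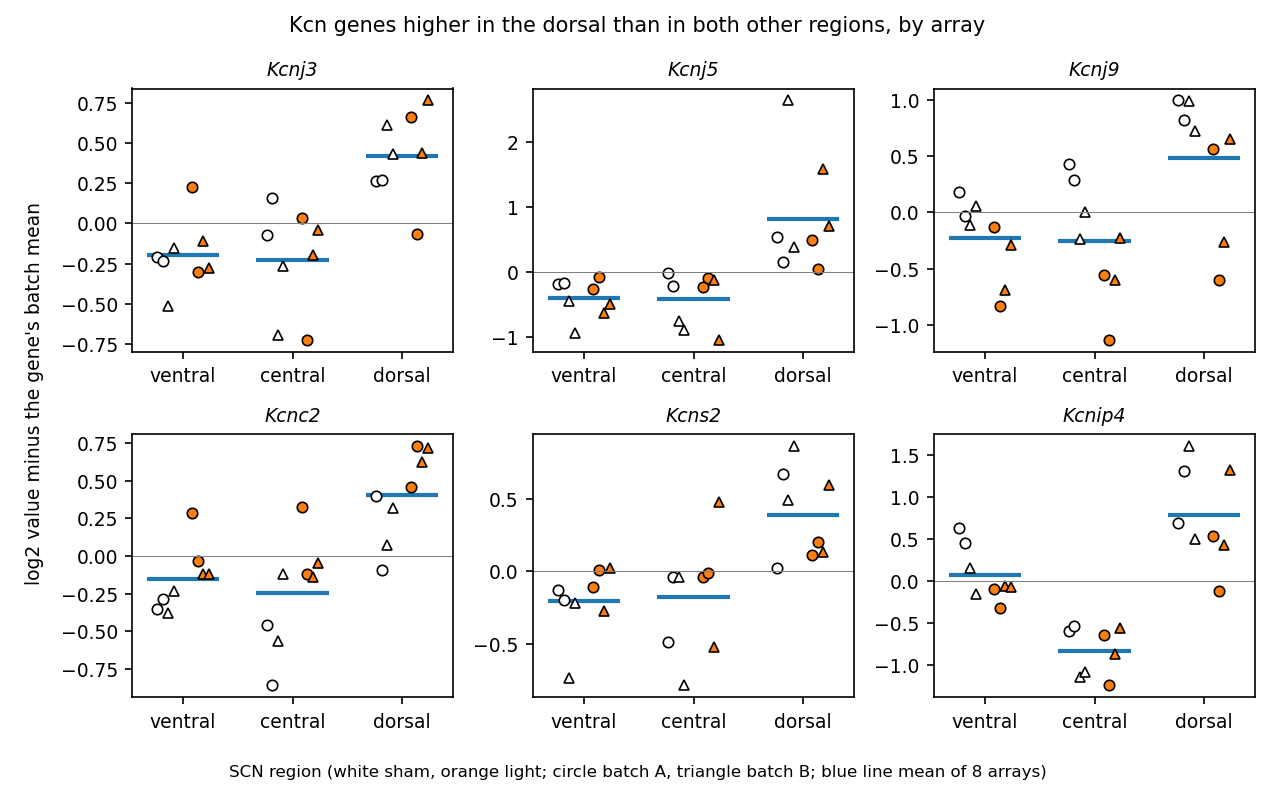
Batch-centred log2 values of 6 Kcn genes that were higher in the dorsal SCN than in both other regions; white is sham, orange light, circles batch A, triangles batch B and the blue line the mean of 8 arrays. All dorsal arrays of Kcnj5 lie above the other regions, from 0.05 to 2.65, and central arrays of Kcnip4 form the lowest set at -1.25 to -0.55.

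These dorsal differences lie beside differences in genes listed as markers of neighbouring hypothalamic neurons. Whether their transcripts came from outside the SCN was not tested. Of 5 tested genes of this list, 3 were lower in the central than in the dorsal SCN (Sst -4.71, Oxt -2.29 and Trh -1.92). In the ventral SCN 2 were lower than in the dorsal SCN (Sst -5.26 and Oxt -2.03). The mean of the 5 genes, batch-centred, was 0.14 to 1.68 over dorsal, -0.90 to -0.33 over central and -0.83 to 0.02 over ventral arrays. Of 5 general neuron markers, 1 was lower in the ventral and 1 in the central than in the dorsal SCN. Their batch-centred mean was 0.06 to 0.49 over dorsal, -0.53 to 0.17 over central and -0.40 to 0.01 over ventral arrays. Dorsal and ventral arrays thus did not overlap in this mean. Of 3 tested ependymal markers, 2 were higher in the dorsal SCN than in each other region. The part of these cells in the Kcn differences was not tested.

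The glial inward rectifiers formed the third group, lowest in the central SCN. Kcnj10 (Kir4.1) is the main potassium uptake channel of astrocytes and is also made by oligodendrocytes, and Kcnj16 (Kir5.1) forms joint channels with it. Kcnj10 had batch-centred values of -0.94 to -0.16 (median -0.49) in the central, 0.02 to 0.66 (median 0.23) in the ventral and 0.03 to 0.68 (median 0.20) in the dorsal SCN, so that all central arrays were below all others. The ventral excess over the central SCN was 0.76 ± 0.12 (adjusted p = 0.000251), at 0.76 in each batch, and the central deficit against the dorsal SCN was -0.72 ± 0.12 (adjusted p = 0.000422). Kcnj16 had values of -1.87 to -0.14 (median -0.93) in the central, -0.22 to 1.09 (median 0.54) in the ventral and -0.02 to 0.88 (median 0.25) in the dorsal SCN. Central and dorsal arrays did not overlap, and 1 ventral array reached the central range. Kcnj16 was 2.54-fold higher in the ventral (1.34 ± 0.177, adjusted p = 2.9e-05) and 2.28-fold higher in the dorsal than in the central SCN (central minus dorsal -1.19 ± 0.177, adjusted p = 0.00012). Neither gene passed between the ventral and the dorsal SCN. All these calls of Kcnj10 and Kcnj16 held in each of 24 fits without 1 array.

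Glial markers moved in the same comparisons. Of 8 astrocyte markers 5 were higher in the ventral than in the central SCN, with a median over the list of 0.67, 3 were higher in the ventral than in the dorsal SCN (median 0.43) and 1 was lower in the central than in the dorsal SCN (median -0.26). Their batch-centred mean was -0.66 to -0.11 over central, 0.23 to 0.53 over ventral and -0.44 to 0.26 over dorsal arrays. Oligodendrocyte markers differed more, with 7 of 7 tested genes higher in the ventral than in the central SCN (median 2.54) and 6 lower in the central than in the dorsal SCN (median -1.40). Their mean ran from -1.76 to -0.84 over central, from 0.75 to 1.44 over ventral and from -0.16 to 0.33 over dorsal arrays. Oligodendrocyte markers were also higher in the ventral than in the dorsal SCN (5 of 7, median 1.00), a comparison in which Kcnj10 differed by 0.04 ± 0.12 and Kcnj16 by 0.15 ± 0.177. Of 6 endothelial and mural markers 3 were lower in the central than in each other region, and of 6 microglial markers 1 was lower in the central than in the dorsal SCN. The part of these cells in the Kcn differences was not tested.

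The leak channel genes Kcnk1 (TWIK1) and Kcnk2 (TREK1) were lowest in the central SCN as well. Kcnk1 had batch-centred values of -0.98 to -0.11 (median -0.41) in the central, -0.10 to 0.42 (median 0.21) in the ventral and -0.05 to 0.54 (median 0.21) in the dorsal SCN, and no central array overlapped another region. Its differences were 0.61 ± 0.125 for ventral minus central (adjusted p = 0.00333) and -0.68 ± 0.125 for central minus dorsal (adjusted p = 0.00103). Kcnk2 had values of -1.25 to -0.08 (median -0.57) in the central, -0.80 to 0.61 (median 0.19) in the ventral and 0.03 to 1.08 (median 0.35) in the dorsal SCN. All dorsal arrays were above all central ones (-0.99 ± 0.17, adjusted p = 0.000528), and the ventral difference of 0.67 ± 0.17 (adjusted p = 0.0185) had an adjusted p of 0.0533 without central sham replicate 4. Kcnk3, Kcnk7, Kcnk10 and Kcnk15 passed in no region comparison. Without dorsal light replicate 4, Kcnk10 passed for ventral minus dorsal (-0.51, adjusted p = 0.0464). Kcnab1, a Kv beta subunit that speeds the inactivation of Kv1 channels, was lower in the central (-0.89 to 0.00, median -0.24) than in the dorsal SCN (-0.47 to 1.13, median 0.38). The difference was -0.66 ± 0.167 (adjusted p = 0.0162), from batch A means under 4 in every region (3.26 to 3.77), and it did not pass with the mean of all probe sets (-0.35, adjusted p = 0.068). Between sham arrays alone it was -1.01 (adjusted p = 0.0233).

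**Figure D4:**
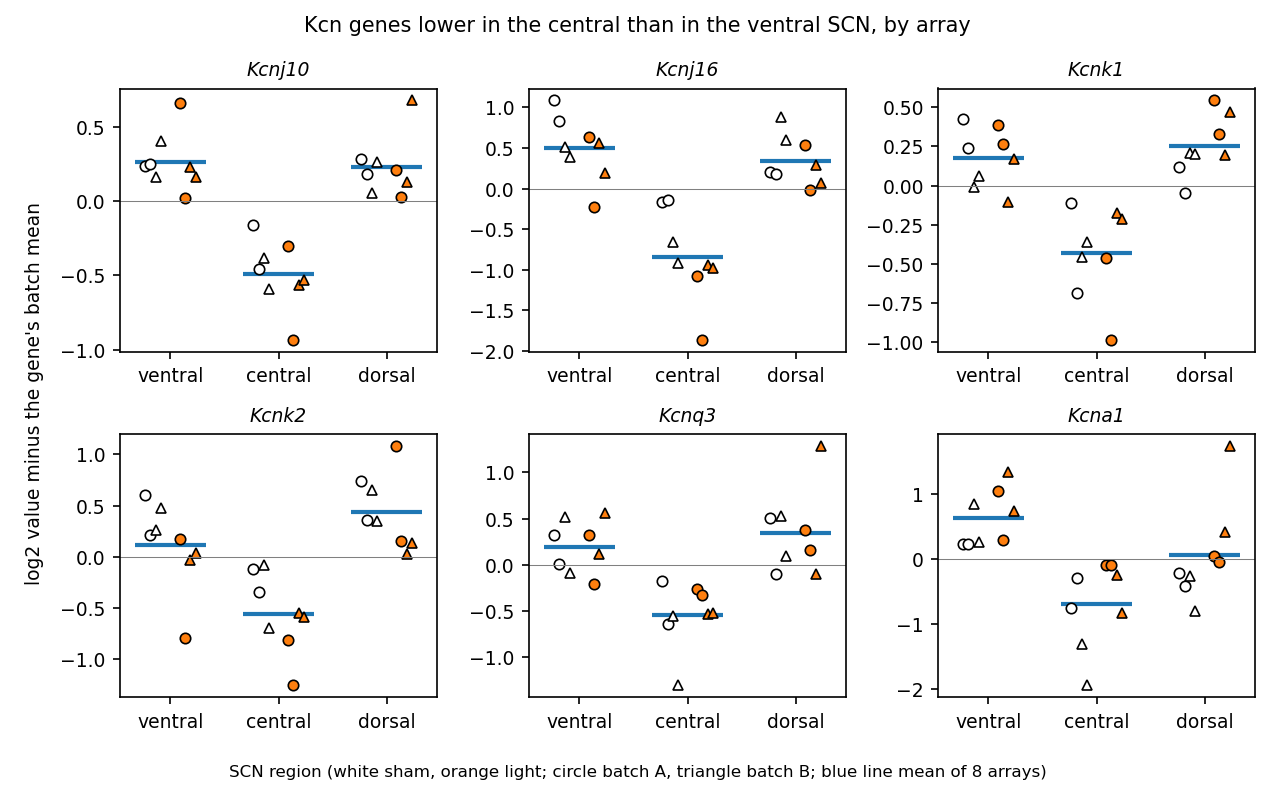
Batch-centred log2 values of 6 Kcn genes that were lower in the central than in the ventral SCN for sham (white) and light arrays (orange) of batch A (circles) and batch B (triangles), with the mean of 8 arrays in blue. Central arrays of Kcnj10 (-0.94 to -0.16) and Kcnk1 (-0.98 to -0.11) lie below every array of the other regions.

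Several subfamilies had no called difference. None of the 4 SK and IK genes, 3 MinK genes, 3 sodium-activated and related genes or 2 noncoding RNAs of Kcn loci (Kcnq1ot1 and Kcnmb4os2) passed in a region comparison. Kcnn2, the SK2 pore, had an unadjusted p under 0.05 for ventral minus dorsal (0.78 ± 0.307, adjusted p = 0.201), which was 0.43 (adjusted p = 0.232) without dorsal light replicate 4. Kcnt2, a sodium-activated channel, was just outside the threshold for ventral minus central (-0.77 ± 0.232, adjusted p = 0.0587) and for central minus dorsal (0.69 ± 0.232, adjusted p = 0.0791), and passed in both without that array (adjusted p = 0.0179 and 0.0113). Kcnh2, the ERG1 channel gene, differed by -0.56 ± 0.266 for central minus dorsal (adjusted p = 0.251), and by -0.27 without it (adjusted p = 0.425). At an unadjusted p under 0.05, 27 of the 62 genes stood out for central minus dorsal, 21 for ventral minus dorsal and 16 for ventral minus central, with 19.3%, 15.0% and 12.9% of all genes.

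Of 23 listed genes for proteins that partner these channels 16 were tested, of which 3 differed for central minus dorsal, 2 for ventral minus central and 1 for ventral minus dorsal. Cntnap2, which clusters Kv1 channels along axons, was higher in the central than in the dorsal SCN (0.71 ± 0.104) and so was Adam23 (0.57 ± 0.0827), each with an adjusted p of 9.14e-05. Cntn2, the axonal partner of Cntnap2 that oligodendrocytes also make, was lower in the central than in the dorsal (-0.48, adjusted p = 0.0163) and in the ventral SCN (ventral minus central 0.68, adjusted p = 0.000916). Ventral minus central also called Cntnap2 (-0.50, adjusted p = 0.00398) and ventral minus dorsal called Adam23 (0.30, adjusted p = 0.0344). Dpp6 and Dpp10, the transmembrane partners of Kv4 channels, did not pass.

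The light pulse changed the level of no tested Kcn gene past the threshold. In the ventral, central and dorsal SCN 0 of 62 genes passed, with 0.719%, 0.385% and 0.178% of all genes. The light effect averaged over the regions called 0 of 62 (0.408% of all genes), and its difference between regions called 0 of 62 (0.00741%). At an unadjusted p under 0.05 limma gave 4 Kcn genes in the ventral, 12 in the central and 9 in the dorsal SCN, 11 for the average and 1 for the interaction, beside 6.56%, 8.06%, 10.1%, 9.52% and 2.05% of all genes. Of 6 light-response genes (Nptx1, Egr3, Fosb, Per2, Vgf and Crem) 6 rose in the ventral, 5 in the central and 2 in the dorsal SCN. These 6 were listed with earlier results of these data known, so they are not an independent check of the pulse. The median light effect over the 62 genes was -0.01, -0.08 and -0.10 in that order, beside -0.03, -0.08 and -0.03 over all genes. With 4 against 4 arrays the intervals below leave room for changes of over 1 log2 unit in some genes. Most genes named below were picked for their small p, so light and sham arrays without overlap add no further support for them. The light effect had 1 sign in all 3 regions for 24 Kcn genes, 7 higher and 17 lower, where 43.5% of all genes had 1 sign.

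Kcnh8, an ELK-type voltage-gated channel, had the smallest adjusted p for the averaged effect. In the dorsal SCN its batch-centred values were 0.36, 0.62, 0.26 and 1.06 after light and -0.28, -0.35, -0.24 and -0.34 after sham, and in the ventral SCN 0.70, 0.58, 0.29 and 0.51 after light and 0.42, -0.09, -0.22 and -0.49 after sham. Light and sham arrays did not overlap in the dorsal SCN and overlapped in the ventral SCN through sham replicate 1. The differences were 0.88 (95% interval 0.38 to 1.37) in the dorsal, 0.69 (0.19 to 1.18) in the central and 0.62 (0.12 to 1.11) in the ventral SCN, and the average was 0.73 ± 0.152 (adjusted p = 0.0994). Kcna1 (0.46, 0.76 and 0.96 in the ventral, central and dorsal SCN; average 0.73, adjusted p = 0.184) and Kcnc2 (0.31, 0.50 and 0.46; average 0.42, adjusted p = 0.344) had positive values too and did not pass. Without dorsal light replicate 4 the dorsal value of Kcna1 was 0.54 (adjusted p = 0.772). With the mean of all its probe sets Kcna1 read 0.21, 0.22 and 0.30 in the ventral, central and dorsal SCN.

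Kcnk15, a K2P gene of the TASK group, had the smallest adjusted p in the central SCN. Its batch-centred values there were -0.22, -0.78, -0.56 and -0.37 after light and 0.14, 0.06, 0.23 and 0.10 after sham. These did not overlap, and the difference was -0.61 (95% interval -0.93 to -0.29, adjusted p = 0.102). It became -0.28 in the ventral and -0.08 in the dorsal SCN, and the interaction had an adjusted p of 1. Without dorsal light replicate 4 the central difference passed (adjusted p = 0.0388). Central means of Kcnk15 in batch A were close to the filter level of 4, at 3.45 after light and 4.05 after sham. In batch B they were 7.66 and 8.29.

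Among the Kir genes, Kcnj11 (Kir6.2), the pore of ATP-sensitive channels, had dorsal values of -0.32, -0.13, -0.63 and 0.00 after light and 0.51, 0.60, 0.24 and 0.32 after sham. The groups did not overlap, and the difference was -0.68 (95% interval -1.05 to -0.31, adjusted p = 0.167), with -0.29 in the ventral and -0.22 in the central SCN. Abcc8, the regulatory subunit of the same channels, fell in the ventral SCN by 1.14 ± 0.249 on the log2 scale (adjusted p = 0.0279), and its values in the central (-0.78, adjusted p = 0.308) and dorsal SCN (-0.34, adjusted p = 0.581) did not pass. Its light effect was not shown to differ between regions (adjusted p of the interaction 1). Kcnj9 had negative values in all regions, -0.51, -0.75 and -0.80 in the ventral, central and dorsal SCN (adjusted p 0.768, 0.327 and 0.326). Its dorsal values were 0.56, -0.60, -0.26 and 0.65 after light and 1.00, 0.82, 0.99 and 0.72 after sham, so the light arrays were all lower and more spread. With the mean of all probe sets of Kcnj9 the light effect was -0.30, -0.35 and -0.41 in the ventral, central and dorsal SCN.

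Kcnq5 had the smallest adjusted p in the ventral SCN. Its values there were -0.04, 0.02, 0.09 and 0.30 after light and 1.17, 0.81, 0.39 and 0.86 after sham, without overlap. The difference was -0.71 (95% interval -1.20 to -0.23, adjusted p = 0.304), beside -0.56 in the central and -0.29 in the dorsal SCN. With the mean of all probe sets these shrank to -0.25 in the ventral (adjusted p = 0.534), -0.22 in the central and 0.01 in the dorsal SCN. Kcna5 was the Kcn gene counted above for the interaction, with an adjusted p of 1. Its light effect was -0.66 in the ventral, -0.56 in the central and 0.65 in the dorsal SCN, where it was 0.41 without light replicate 4. Ventral values were -0.52, -0.72, -0.29 and -0.22 after light and 0.22, 0.46, 0.04 and 0.18 after sham, and dorsal ones -0.87, 0.05, -0.95 and 0.30 after light and -1.24, -0.67, -0.74 and -1.42 after sham. Light arrays were below all sham arrays in the ventral SCN and overlapped them in the dorsal SCN. The BK pore gene Kcnma1 differed by -0.77 ± 0.303 in the central SCN (adjusted p = 0.471), where another of its probe sets read 1.06 and the mean of all of them 0.10, so no direction is given for it, and by 0.01 in the ventral and -0.13 in the dorsal SCN.

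**Figure D5:**
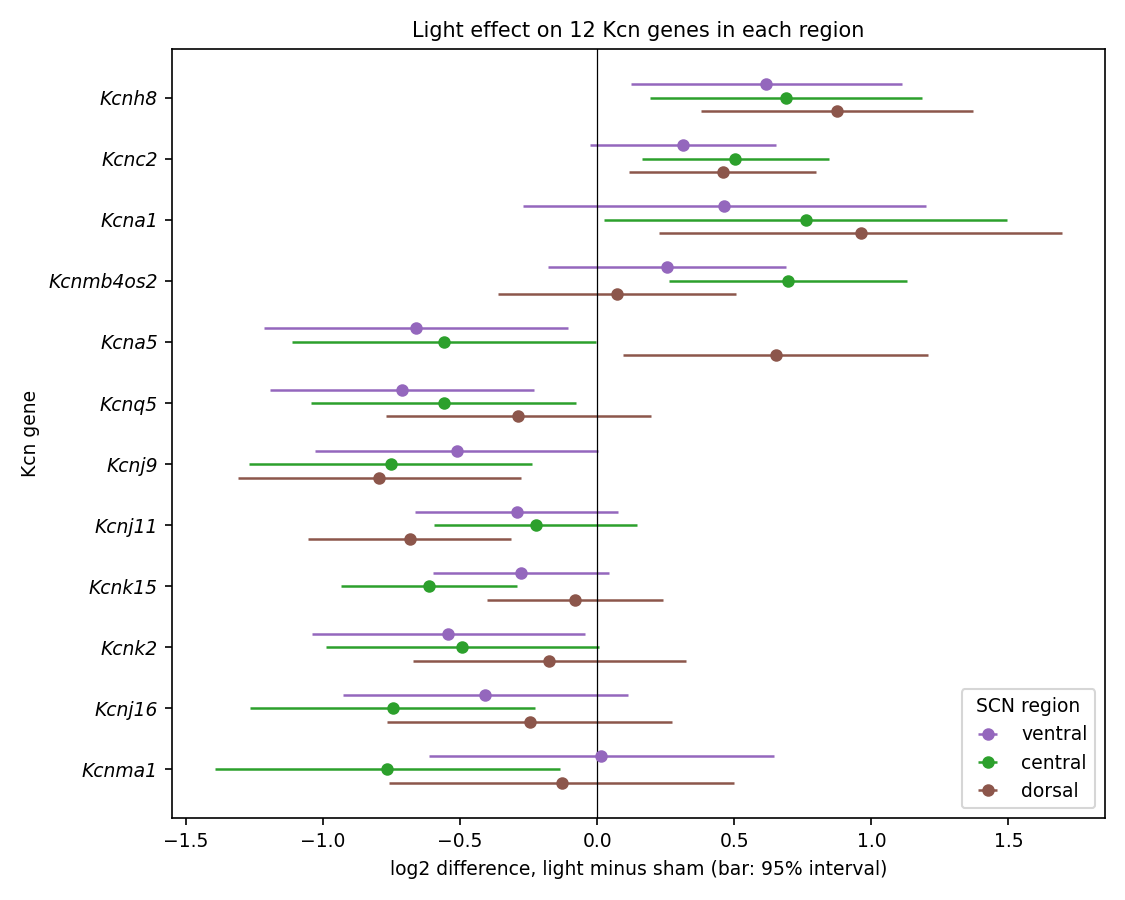
Light minus sham log2 differences of 12 Kcn genes in the ventral (purple), central (green) and dorsal (brown) SCN, with 95% intervals from 4 against 4 arrays. None passed the adjusted threshold; Kcnh8 lies above 0 in all regions (0.62 to 0.88), Kcnj9 below 0 (-0.80 to -0.51), and Kcna5 changes sign between the ventral (-0.66) and dorsal SCN (0.65).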

How the data were processed

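Each of 24 Affymetrix arrays gave 1 value for each of 45101 probe sets. The authors deposited log2 values, and the submitters' processing notes list GCRMA 2.32.0, R 3.0.2 and MAS5 with no role for each. The sources used here do not say how the batches were normalized. Gene symbols are those of the platform annotation; all 84 Kcn genes matched RefSeq by Entrez identifier, with 0 symbols changed. Tests used limma 3.58.1 under R 4.3.3 (two-sided, lmFit with eBayes, Benjamini-Hochberg over 13494 genes) in 1 fit of 6 group means and batch (degrees of freedom: 17 residual, 4.7 prior). The averaged light effect used 8 composites, each the mean of the 3 regions for a treatment and replicate number (5 residual, 5.7 prior), and the interaction a moderated F statistic. Scripts were tested on simulated data. Members, lists and named genes were chosen with earlier results of these data known. Named genes are all that passed with 1 sign in both batches (the smallest p up to 5 where fewer did), a panel of members studied in the SCN and the leading member of each subfamily. Of the panel, Kcnh7 was not tested, and some members are not reported here. Alternatives changed the batch term, scaling, filter, probe set rule, weights or arrays. The number of arrays limits the precision.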

Additional observations from a re-analysis of the deposited data

Results flagged for a closer look

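In the 21 genes that differed between regions, the 6 groups of 4 arrays gave 126 sets of batch-centred values, and in 10 sets a single array lay far from the others by Dixon's criterion. Chance sets apart about 1 in 20 such groups. Dorsal sham replicate 3 was low for Kcnh1 (-0.95, the others -0.51 to -0.47) and high for Kcnj5 (2.65, the others 0.16 to 0.54). Central light replicate 4 was low for Kcnj5 (-1.05, the others -0.22 to -0.10) and high for Kcna5 (0.90, the others 0.34 to 0.43). Ventral sham replicate 3 was low for Kcns2 (-0.74, the others -0.22 to -0.13) and high for Kcna1 (0.85, the others 0.23 to 0.26). Central light replicate 2 was low for Kcnj16 (-1.87, the others -1.08 to -0.95) and ventral light replicate 2 for Kcnip4 (-0.33, the others -0.10 to -0.07). Dorsal light replicate 2 was high for Kcnmb2 (1.11, the others -1.57 to -1.34), and dorsal light replicate 1 for Kcnk2 (1.08, the others 0.03 to 0.15).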

How the results depend on the processing

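No called Kcn difference, and none of the 5 values of smallest p in each light comparison, changed its sign under the alternatives run; of these results' values under all alternatives, 1971 kept direction and side of the threshold, 207 lost the call and 10 gained one, and the cause was not tested. The counts of Kcn genes that differed (10 for ventral against dorsal, 10 for ventral against central, 19 for central against dorsal) were, in that order, 0, 0 and 0 without the batch term, 0, 2 and 3 in batch A alone, 1, 2 and 5 in batch B alone (both with fewer arrays) and 3, 4 and 5 between sham arrays alone. Array weights gave 18 for ventral against dorsal, and the mean of all probe sets 6. Leaving out 1 array at a time gave 6 to 12, 7 to 12 and 17 to 21, where 488 to 727, 549 to 1092 and 714 to 1185 of all genes were called. Without dorsal light replicate 4 and central light replicate 2 together, the counts were 14, 13 and 19. For light, these 2 arrays left out gave 1 in the ventral (Kcnq5), 1 in the central (Kcnmb4os2) and 1 in the dorsal SCN (Kcnj9). Array weights gave 2 (Kcnh8 and Kcnq5), 1 (Kcnmb4os2) and 3 (Kcna7, Kcnj11 and Kcnj9) in that order. Except for fits without 1 array, no count over all genes is given under these alternatives. Their Kcn counts are therefore not set against a share of all genes. Kcnmb4os2 exceeded a log2 value of 4 on 4 arrays only, all of them light arrays. It passed the filter through the light groups alone, so its light calls are not independent of the filter. Leaving out 1 array at a time gave 0 to 1 in the central SCN and 0 to 0 in the ventral and dorsal SCN, for the average and for the interaction. Of all genes, such fits called 24 to 164 in the central, 47 to 207 in the ventral and 12 to 41 in the dorsal SCN. The average had 13 to 57 and the interaction 0 to 2. With the replicate number as a block in place of the batch, the replicate block gave 11, 11 and 22 regional differences and 1 light effect in the central SCN (Kcnk15, -0.61, adjusted p = 0.0223). Deviations of same-numbered arrays correlated at 0.096 to 0.623, positive in 30 of 30 pairs but not over 0.1 in all (29 of 30), which a pairing required, and the labels do not say what the number marks. Other scaling and filters kept each count within 1.5 times. Kcnj5, Kcnk13 and Kcnmb4os2 were not tested, and so have no value, with the filter on 12 arrays, nor Kcnk13 with the mean of all probe sets. Among the other 289 values of tested Kcn genes, none of them called, 25 changed sign with the mean of all probe sets, Kcnma1 in the central SCN after light among them (-0.77 to 0.10), and so did 29 of 318 without dorsal light replicate 4.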
